A study of Rattus norvegicus with 2 samples.

Results

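The sites described here are stretches of the rat genome where the chromatin protein HMGB2 gave a high-scoring peak of limited width in untreated heart muscle cells and a high-scoring peak at the same place after an agonist. They were chosen from 2 deposited peak lists of chromatin immunoprecipitation followed by sequencing (ChIP-seq). A basal peak on chromosomes 1 to 20 was taken when its score was at least 100, its width was below 2000 bp and it overlapped, by at least 1 bp, a phenylephrine peak that also scored at least 100. This gave 889 sites of the 43721 basal peaks in all, with 893 partners among the 42691 phenylephrine peaks. Score, basal width and overlap chose the sites, so values of these 3 quantities are given as a description only.

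HMGB2 belongs to the high mobility group box proteins, which bind the minor groove of DNA with little sequence preference and bend it. Such proteins are abundant in the nucleus, exchange rapidly on chromatin and alter how DNA is packed around nucleosomes and how accessible it is to other factors. Phenylephrine activates alpha-1 adrenergic receptors and makes cultured neonatal heart muscle cells enlarge, a common model of hypertrophic growth.

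Both libraries came from primary ventricular myocytes of Sprague Dawley rat pups aged 1 day, and both used the same HMGB2 antibody. The basal library came from cells with no treatment, and the other from cells given 10 µM phenylephrine for 48 h. For the basal cells the sources used here give no such time. All cells had been plated for 24 h before a change of medium, were fixed in 1% formaldehyde for 10 min and had their chromatin sheared to fragments of 500 bp. Primary cultures can hold other heart cells than myocytes, and peak lists carry no expression markers against which the cell type could be checked. Each condition had 1 library, so no difference below has a replicate check, the spread between cultures is unknown and no p-value is given. Intervals are 95% intervals over sites, cover counting error only, and treat neighbouring sites as independent although they are not. Read depth is unknown.

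Strong sites held in both lists were a small part of either list. On chromosomes 1 to 20 the basal list had 10117 peaks that met the score and width limits, and the 889 shared sites were 8.79% of them. A further 2445 of these basal peaks overlapped only a phenylephrine peak of lower score, and 6783 overlapped none. With any phenylephrine peak allowed as partner, the share was 33.0%. Of the 3010 phenylephrine peaks with a score of at least 100, 29.7% were partners of a site. Another 502 lay on a strong basal peak that was too wide to be counted, 300 lay on a basal peak of lower score, and 1315 lay on no basal peak. Over all 42482 basal peaks on these chromosomes, with no limit on score or width, 3.99% overlapped a strong phenylephrine peak. Since the rule fixes these counts, nothing further is read from them.

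The pairing was simple at nearly every site. At 885 sites there was a single strong phenylephrine partner and at 4 sites there were 2, and no phenylephrine peak served 2 sites. Where there were 2 partners, the one with the longer overlap is described.

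The share of strong basal peaks with a strong partner was higher in each higher band of basal score. The bands were chosen with the data known. From a basal score of 100 to 200, 436 of 7669 peaks had a strong partner, 5.69% (5.19 to 6.23%). From 200 to 500 there were 336 of 2271, 14.8% (13.4 to 16.3%). From 500 to 1000 there were 53 of 107, 49.5% (40.2 to 58.9%), and at 1000 or above 64 of 70, 91.4% (82.5 to 96.0%). The 889 sites therefore consist mostly of moderate peaks, with a short upper tail in which a strong basal peak without a strong partner was the exception.

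The sites at the edge of each limit show how fine the selection was. The lowest basal scores inside were 100.67, at 264043367 to 264044321 of chromosome 1, and 100.69, at 31660858 to 31662544 of chromosome 11. The nearest outside scored 99.93, namely 124153355 to 124154401 on chromosome 5 and 41483 to 42631 on chromosome 17. The lowest partner scores inside were 100.06, for the site at 70838847 to 70840235 of chromosome 7, and 100.25, for that at 113955347 to 113956639 of chromosome 8. Partners of 99.95 and 99.94 kept out the basal peaks at 84066537 to 84068306 of chromosome 1 and at 75359645 to 75361133 of chromosome 11. The widest sites inside spanned 1997 bp, at 133100835 to 133102831 of chromosome 6 and at 40803205 to 40805201 of chromosome 13. Widths of 2000 and 2001 bp kept out those at 31045270 to 31047269 of chromosome 13 and at 71928964 to 71930964 of chromosome 6. The width limit removed more than these, since 500 basal peaks of at least 2000 bp also scored at least 100 and overlapped a strong phenylephrine peak.

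The basal peak of a pair was wider than its partner at most sites, and basal peaks were also the wider ones in the lists as a whole. Over all peaks on chromosomes 1 to 20 the median width was 1113 bp in the basal and 585 bp in the phenylephrine list. The median basal peak spanned 1385 bp (1362 to 1410 bp) and the median partner 927 bp (901 to 950 bp). The middle 50% of widths ran from 1135 to 1647 bp in the basal list and from 694 to 1126 bp among the partners. The median ratio of basal to phenylephrine width was 1.47 (1.43 to 1.51), and the basal peak was wider at 803 sites, 90.3% (88.2 to 92.1%). The basal peak enclosed its whole partner at 557 sites, 62.7% (59.4 to 65.8%), and the reverse was seen at 15 sites, 1.69% (1.02 to 2.77%). Among the 2445 strong basal peaks with only a weaker partner, the basal peak was wider at 97.6% (96.9 to 98.1%). It enclosed the weaker partner at 69.7% (67.8 to 71.4%), so neither trait is particular to the shared sites. The median overlap at the shared sites was 864 bp. Computed site by site, the median share of the peak that was overlapped was 100% for the partner and 64.6% (63.5 to 66.4%) for the basal peak. The limit of 2000 bp holds for the basal peak only, and 9 partners were at least as wide as that.

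The basal peak extended beyond its partner by like amounts on both sides. The median margin was 186 bp (163 to 215 bp) at the lower coordinate and 190 bp (165 to 217 bp) at the higher. The partner's midpoint lay at the higher coordinate at 444 sites, 49.9% (46.7 to 53.2%), and the median signed displacement was 0 bp (-15 to 15.5 bp). No shift of the peaks in 1 direction along the chromosomes was therefore seen.

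The midpoints of the 2 peaks lay close together for peaks of this width. Their median distance was 153.5 bp (140.5 to 165.5 bp), with the middle 50% of sites between 64 and 269.5 bp. At 320 sites, 36.0% (32.9 to 39.2%), the midpoints were within 100 bp, and at 643 sites, 72.3% (69.3 to 75.2%), within 250 bp. At 59 sites, 6.64% (5.18 to 8.47%), they were more than 500 bp apart, which is the labelled fragment length. Expressed against the largest distance at which the 2 peaks could still touch, the median offset was 13.8% (12.7 to 14.6%).

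The midpoints lay closer together in pairs with a strong partner than in pairs with a weaker one. At the 2445 strong basal peaks whose phenylephrine peak scored under 100, the median midpoint distance was 220 bp (210.5 to 230 bp) and the median relative offset 20.5% (19.6 to 21.6%). The width ratio there was 2.02 (1.98 to 2.06). These weaker phenylephrine peaks spanned 677 bp (667 to 689 bp) and their basal peaks 1464 bp (1447 to 1487 bp). The gap in relative offset was also present at matched basal score in both lower bands. From 100 to 200 the relative offset was 15.3% (13.7 to 17.4%) with a strong partner and 21.5% (20.3 to 22.8%) with a weaker one, and from 200 to 500 it was 13.8% (12.0 to 15.8%) and 18.8% (17.4 to 20.4%). The intervals lie apart in these bands. From 500 to 1000 the values were 11.3% (7.60 to 15.2%) at 53 sites and 24.4% (9.33 to 29.3%) at 28, with overlapping intervals. Both measures of offset depend on the widths of the 2 peaks, and the widths differed between these sets. The values therefore do not show better centring for a given width. Whether width, score or both carry this difference was not tested.

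The highest-scoring sites had the narrowest basal peaks and the closest midpoints. At the 64 sites with a basal score of 1000 or above the median basal width was 1074 bp (936 to 1155 bp) and the median partner width 812 bp (715 to 913 bp), a median ratio of 1.27 (1.12 to 1.35). From 200 to 500 the widths were 1488 bp (1426 to 1541 bp) and 937 bp (887 to 958 bp), with a ratio of 1.55 (1.50 to 1.61). The median midpoint distance was 171 bp (153.5 to 186 bp) at scores of 100 to 200, 156.5 bp (137.5 to 182 bp) from 200 to 500, 106 bp (74.5 to 189.5 bp) from 500 to 1000 and 87 bp (48.5 to 120.5 bp) at 1000 or above. In the top band both edges agreed within 50 bp at 12 of 64 sites, 18.8% (11.1 to 30.0%), against 8 of 436, 1.83% (0.933 to 3.58%), in the lowest. None of the 53 and none of the 64 sites in the upper bands had midpoints more than 500 bp apart, which allows shares of up to 6.76% and 5.66%.

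**Figure D1:**
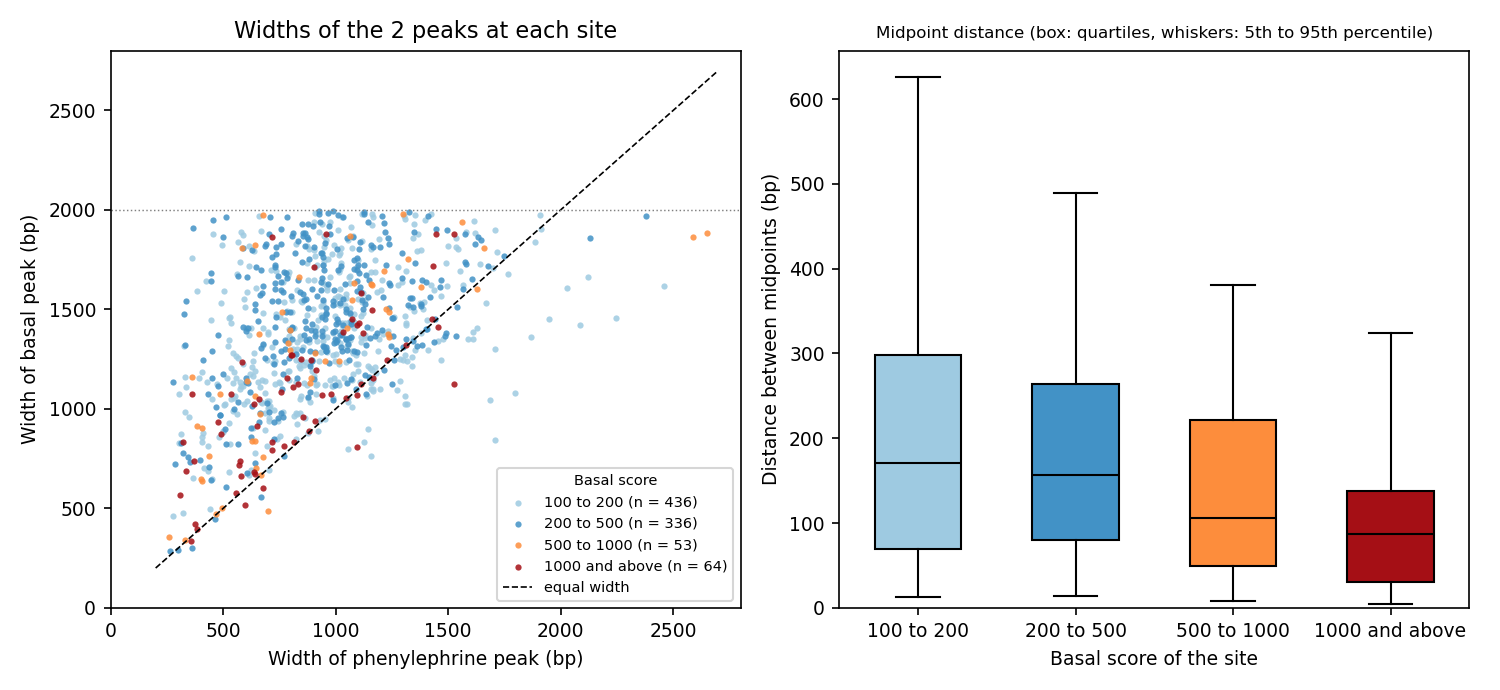
Left, width of the basal peak against width of its phenylephrine partner at each of the 889 sites, coloured by basal score, with a dashed line of equal width and a dotted line at the limit of 2000 bp. Right, distance between the 2 midpoints by basal score, with boxes for quartiles and whiskers for the 5th and 95th percentiles. Most points lie above the line of equal width, and the median distance falls from 171 bp in the lowest band to 87 bp in the highest.

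Part of that pattern depends on the width limit. With wide peaks admitted, the band from 500 to 1000 held 102 sites, 48.0% of them (38.6 to 57.6%) at least 2000 bp wide, and its median midpoint distance was 208 bp (142.5 to 243 bp), no smaller than the 199 bp (178.5 to 218.5 bp) of the lowest band. In the top band the pattern did not rest on the limit. There, 22.9% of 83 sites (15.2 to 33.0%) were that wide, and the median distance was 106 bp (81.5 to 133.5 bp), the width ratio 1.29 (1.15 to 1.37) and the relative offset 8.38% (6.87 to 9.97%).

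Rank within each list shows how unequally the limit of 100 cuts them. The sites lay in the top 31.96% of the basal list at the lowest and in the top 7.24% of the phenylephrine list. The median site stood in the top 9.54% (8.76 to 10.4%) of the basal list and its partner in the top 2.45% (2.24 to 2.73%) of the other. The median scores were 202 (194 to 210) and 128 (125 to 130), but the scale of the scores is not given, so they rank peaks within a list and were not compared between lists.

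Within bands of basal score, the ranks of the paired peaks went together strongly only in the top band. Over the 889 sites Spearman's rho between basal and phenylephrine score was 0.36. Within bands of basal score it was 0.04 from 100 to 200 (436 sites), 0.13 from 200 to 500 (336 sites), 0.05 from 500 to 1000 (53 sites) and 0.79 at 1000 or above (64 sites). Between bands the ranks did go together. From the lowest band to the top, the median partner rank was 1306.5 (1174 to 1472), 999.75 (843 to 1209), 423 (165.5 to 774) and 43.5 (31 to 64). Restricting sites by score narrows the range of both lists, and all points come from the same pair of libraries, so these values describe the sites only. Of the sites, 138 were in the top 1% of the basal list and 207 in the top 1% of the phenylephrine list, and 94 were in both, which is 68.1% of the former and 45.4% of the latter. These are shares of the sites and not of all peaks in the top 1% of either list. The rule already places every partner in the top 7.24% of its list. Of the 39 partners that scored at least 500, 36 sat on a basal peak of at least 500 and 35 on one of at least 1000. Phenylephrine peaks of at least 500 that were not partners of a site are left out of this count, so it does not describe the whole list. No site with a basal score under 200 had a partner of 300 or above.

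**Figure D2:**
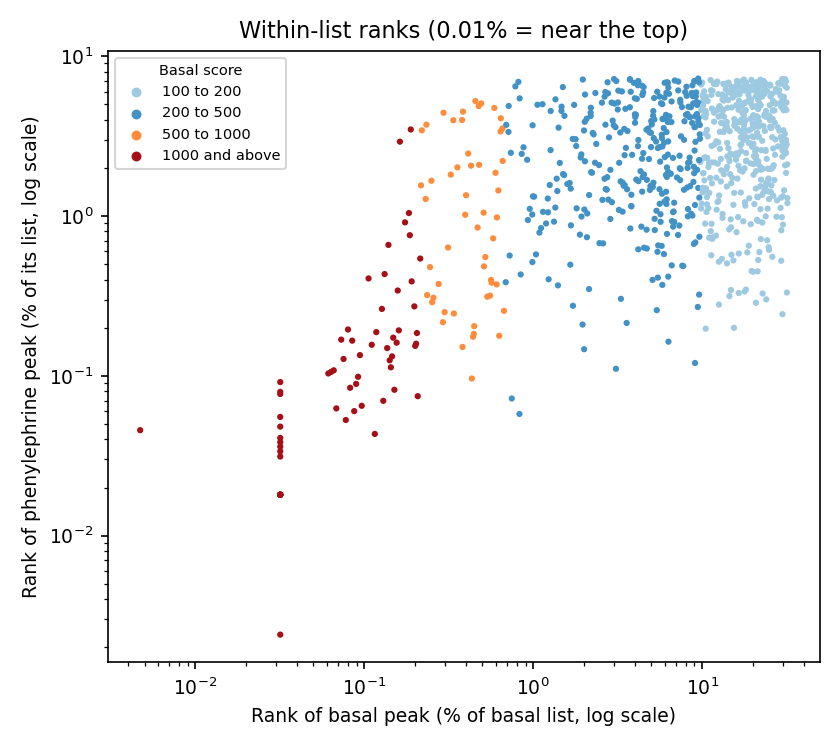
Rank of the basal peak and of its phenylephrine partner at each of the 889 sites, each as a percentage of its own list on a log scale, coloured by basal score. Sites with a basal score of 1000 or above fall along a diagonal at the lower left, while the partners of the 436 sites of lowest basal score spread from 0.197% to 7.18%; the column at 0.0318% holds peaks tied at a score of 3100.

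The sites ranked best by the sum of both ranks were spread over 8 chromosomes. A score of 3100, at which many peaks of both lists are tied, was reached or passed by 20 of the basal peaks and by 9 of the partners, and all 9 of these partners sat on one of the 20. Those 9 sites and the second-ranked basal peak make up the best 10. Chromosome 8 at 34245676 to 34247058 came first (basal score 3100, partner score 3107). Its partner, at 34246164 to 34247286, was displaced by 358 bp, the largest displacement of the 10. On chromosome 10 the basal peak at 29081777 to 29082833 and the partner at 29081791 to 29082836 differed by only 14 bp at the lower edge and 3 bp at the upper. Chromosome 13 supplied 3 of the 10 sites, at 19223638 to 19224321, 30490554 to 30491987 and 36740454 to 36741171, all with both scores at 3100. The partners' midpoints there were displaced by -11.5, -180 and -61.5 bp, where a negative value is toward the lower coordinate.

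The set also holds the sites on chromosome 1 at 70431410 to 70432794 (displacement -83 bp), chromosome 2 at 156715675 to 156716996 (-107.5 bp), chromosome 3 at 148550600 to 148551754 (186.5 bp) and chromosome 6 at 91432006 to 91432520 (-41.5 bp), again with both scores at 3100. On chromosome 3 the 2 peaks ended at the same base, and the difference in width lay wholly at the lower edge. On chromosome 6 the partner, of 596 bp, was wider than the basal peak, of 515 bp. The last of the 10 lies where the assembly of chromosome 15 begins. Its basal peak at 2 to 1071 scored 3158 and ranked 2, and its partner at 4 to 1096 scored 1335 and ranked 19. With 1 library per condition the order among these tied sites carries no information.

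Among the 100 sites with the best rank sums, 3 pairs had midpoints that all but coincided. On chromosome 15 the basal peak at 31146708 to 31147285 and its partner at 31146719 to 31147273 had midpoints 0.5 bp apart, with scores of 2347 and 840. On chromosome 12 the pair at 3189178 to 3190301 and 3189183 to 3190294 was 1 bp apart, with scores of 1206 and 215. On chromosome 14 the pair at 90877783 to 90879030 and 90877791 to 90879019 was 1.5 bp apart, with scores of 2845 and 562. In all 3 pairs the basal peak enclosed its partner with no more than 12 bp to spare on either side, so the lists gave nearly the same interval.

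The largest displacement was 1209 bp toward the lower coordinate, on chromosome 4, between the basal peak at 105744079 to 105745937 and a wider partner at 105742735 to 105744863. On chromosome 6 the peaks at 11150556 to 11152153 and 11151835 to 11153035 were 1080.5 bp apart. On chromosome 8 those at 119844028 to 119845435 and 119845398 to 119846020 were 977.5 bp apart and shared only 38 bp. The overlaps at the chromosome 4 and chromosome 6 sites were 785 and 319 bp. These 3 sites were chosen by distance in bp. The smallest overlap of all 889 sites was 22 bp, at a chromosome 7 site with an offset of 97.2% of the largest possible.

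The ratio of widths ranged from 0.493 to 5.21. The highest ratios, where a narrow partner sat in a broad basal peak, were 5.21 on chromosome 13 at 45930132 to 45932042 (partner 367 bp wide), 4.88 on chromosome 1 at 193269668 to 193271424 (360 bp) and 4.64 on chromosome 2 at 127680572 to 127682115 (333 bp). The last of these partners scored 937 and ranked 24 in its list, although its basal peak scored 464 and ranked 352. The lowest ratios were 0.493 on chromosome 3 at 38881924 to 38882765, 0.600 on the same chromosome at 58528419 to 58529497, and 0.621 for the site on chromosome 14 at 12812431 to 12813477, with partners of 1709, 1799 and 1687 bp. Their basal scores, from 116 to 137, were in the lowest band.

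Some sites stood far higher in one list than in the other. The widest gap in favour of phenylephrine was on chromosome 3 at 5109710 to 5110508, which scored 101 and was in the top 31.7% of the basal list while its partner scored 219 and was in the top 0.332% of the phenylephrine list. Next came the 2 sites just inside the basal limit, on chromosome 1 at 264043367 (partner score 150) and on chromosome 11 at 31660858 (partner score 148). In favour of the basal list were chromosome 19 at 30721870 to 30723592 (top 0.817% of the basal list, top 6.90% of the other), chromosome 4 at 795310 to 797124 (0.784% and 6.47%) and chromosome 13 at 33600624 to 33602032 (1.97% and 7.14%). The limits leave more room for a gap in the former direction than in the latter, so the sizes of the gaps were not compared.

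Along the genome the sites were sparse. There were 0.348 per Mb, or 1 site for each 2.88 Mb of the span that peaks covered. The median distance to the nearer neighbouring site was 590 kb (523 to 704 kb). At 38 sites, 4.27% (3.13 to 5.81%), another site lay within 10 kb, and at 158 sites, 17.8% (15.4 to 20.4%), within 100 kb. Of 2568 bins of 1 Mb, 662 held a site, 111 of them 2 sites and 40 at least 3. At the other extreme, 43 stretches of at least 10 Mb between neighbouring sites added up to 643 Mb. The longest, 27.0 Mb on chromosome 2 from 127807487 to 154837199, still held 66 strong basal peaks below the width limit and 10 strong phenylephrine peaks, so both lists had strong calls there that did not meet.

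The highest-scoring sites had other shared sites nearby more often. Another site lay within 100 kb at 12.8% (10.0 to 16.3%) of sites scoring 100 to 200 in the basal list and at 16.1% (12.5 to 20.4%) of those scoring 200 to 500. It did so at 43.4% (30.9 to 56.7%) of those scoring 500 to 1000 and at 39.1% (28.1 to 51.3%) of those at 1000 or above. Within 10 kb the shares in the lowest and the top band were 1.61% (0.780 to 3.28%) and 18.8% (11.1 to 30.0%). Without the chromosome 16 region described below, the shares within 100 kb were 12.6% and 13.5% in the lower bands. In the upper bands they were 36.2% (24.0 to 50.5%) and 36.1% (25.2 to 48.6%). The same count was not made for strong basal peaks without a strong partner, so whether the trait is particular to shared sites was not tested.

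**Figure D3:**
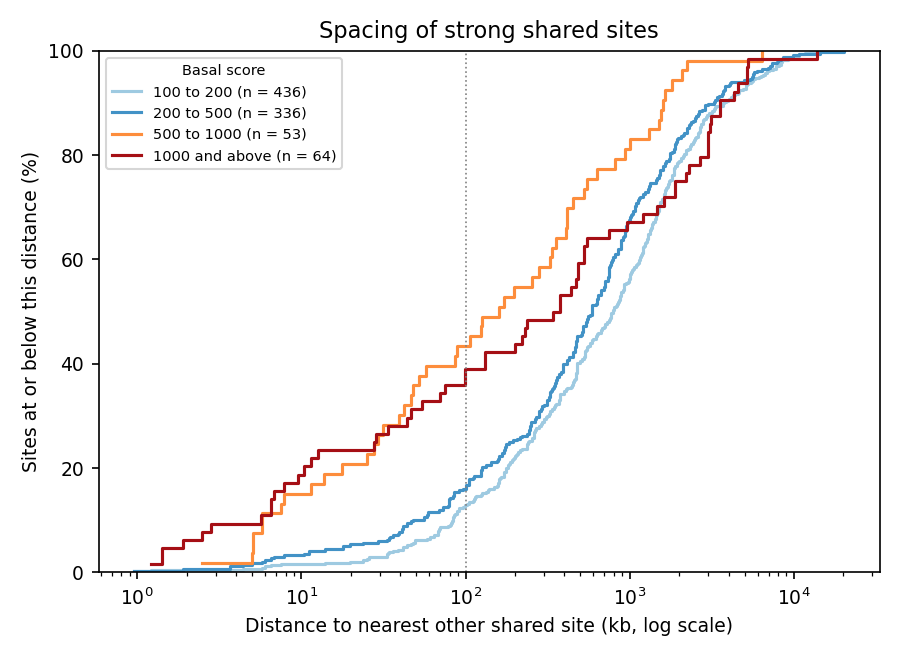
Cumulative share of sites by the distance to the nearest other strong shared site, on a log scale, for 4 bands of basal score, with a dotted line at 100 kb. At that distance the curves of both upper bands stand at 43.4% and 39.1% and those of both lower bands at 12.8% and 16.1%.

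When sites within 100 kb of each other were joined, 731 stood alone and 158 fell into 61 groups. The groups comprised 42 of 2 sites, 12 of 3, 4 of 4 and 1 each of 5, 7 and 10. Grouped sites had a median basal score of 267 (223 to 326) and lone sites 196 (187 to 204). A basal score of at least 500 was found at 48 grouped sites, 30.4% (23.7 to 37.9%), and at 69 lone sites, 9.44% (7.53 to 11.8%). The midpoint distance was 109 bp (84 to 150.5 bp) in groups and 162 bp (146 to 174 bp) at lone sites.

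Both largest groups lay next to each other on chromosome 16. The group of 10 ran from 20586587 to 20871042 and the group of 7 from 21506379 to 21630148, with 3 further sites between them, so that 1.04 Mb held 20 of the 889 sites. Basal scores there ran from 154 to 3100 with a median of 495, and partner scores from 101 to 674 with a median of 139. The strongest, at 21512847 to 21514562, scored 3100 and had a partner of 674 at 21513123 to 21514555. The first, at 20586587 to 20587782, scored 1627 with a partner of 316. The partner lay inside the basal peak at 14 of the 20 sites, and the median midpoint distance was 82.8 bp.

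Strong peaks of both lists, with the shared sites and their partners counted in, were dense in that region. Of its 93 basal peaks 66 scored at least 100, 71.0% (61.1 to 79.2%) against 32.3% of the whole basal list. Of its 60 phenylephrine peaks 36 did, 60.0% (47.4 to 71.4%) against 7.24%. The region was picked for its number of sites, and the sites and partners all score at least 100 by the rule. Both raise these shares, which are a description.

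**Figure D4:**
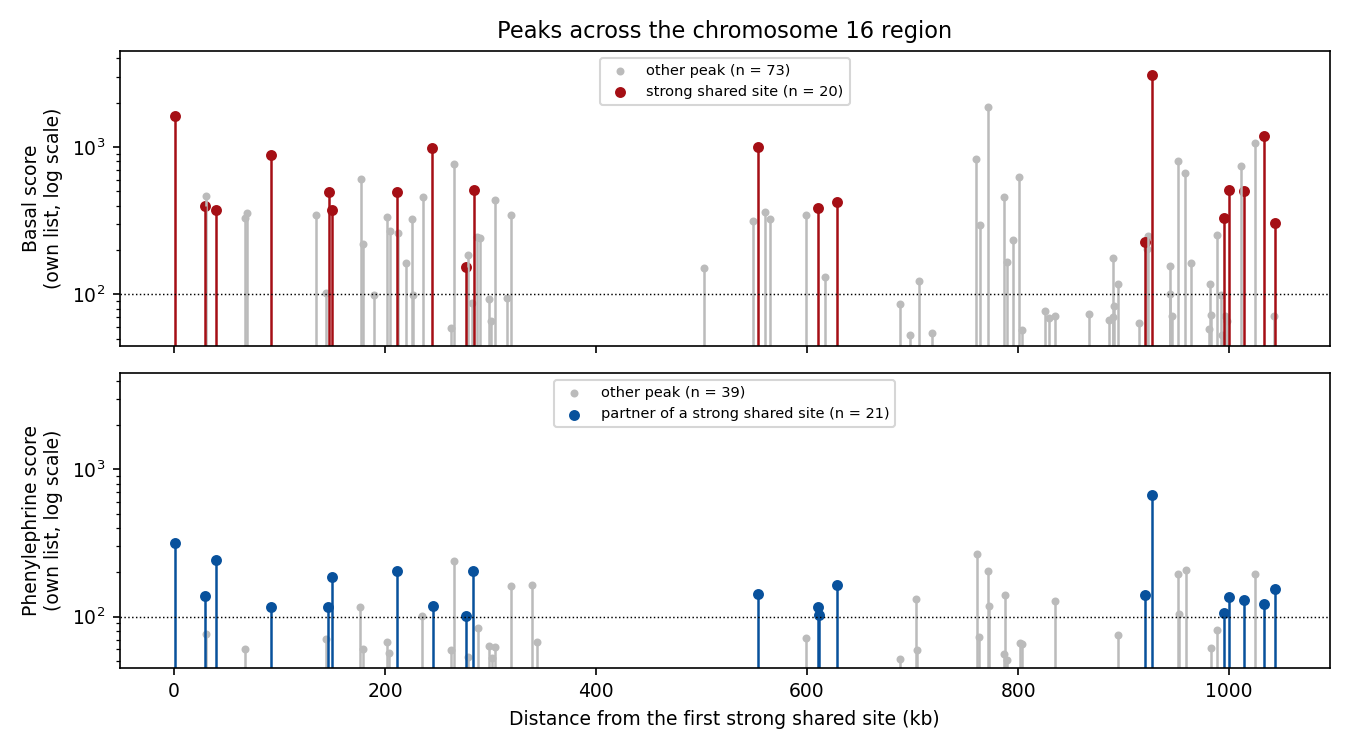
Scores of all basal peaks (top) and phenylephrine peaks (bottom) across the 1.04 Mb of chromosome 16 with the most sites, against distance from the first site in kb, on log scales that belong to each list. Coloured stems mark the 20 shared sites and their 21 partners, grey stems mark other peaks, and the dotted line marks a score of 100.

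Smaller groups held some of the strongest sites. On chromosome 4 from 75830730 to 75893688 there were 4, and 3 of them had a basal score of 3100, with partners of 1318, 2914 and 1717. The fourth, between them at 75836272 to 75837576, scored 252 with a partner of 159. On chromosome 1 from 111287601 to 111397855 the basal scores of 4 sites were 845, 2111, 217 and 2051, and the partner scores 140, 298, 143 and 364. On chromosome 5 a group of 5 from 25329909 to 25388694 included the closest neighbours of all, at 25329909 to 25330554 and 25330802 to 25331577, with midpoints 0.958 kb apart. Within each of these groups strong and moderate sites stood side by side.

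In the remaining groups of 4 the median widths were smaller than the widths at most sites. On chromosome 12 from 3114231 to 3190301 the median basal width was 462 bp and the median partner width 333 bp, with basal scores from 523 to 1251. Not all its peaks were narrow, since the site at 3189178 to 3190301 had a basal peak of 1124 bp and a partner of 1112 bp. On chromosome 18 from 38727508 to 38787109 the medians were 628 and 346 bp, with basal scores from 609 to 1136. The median midpoint distances were 30.3 and 9.25 bp. The chromosome 12 group included 1 of the 2 sites whose partner was narrower than 270 bp, at 3119514 to 3119867 with a partner of 259 bp. The other was on chromosome 5 at 21263483 to 21263769 with a partner of 263 bp.

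The sites did not sit in regions richer in peaks than other strong basal peaks did. Other shared sites and their partners are counted among the peaks nearby. Another basal peak lay within 10 kb of 35.4% of them (32.4 to 38.6%), against 40.0% (38.1 to 42.0%) of strong basal peaks with a weaker partner and 41.5% (40.3 to 42.6%) of those with none. In the lowest score band, which holds 436 of the 889 sites, the shares were 32.3% (28.1 to 36.9%), 42.9% (40.5 to 45.3%) and 42.3% (41.0 to 43.6%). From 200 to 500 they were 34.8%, 33.6% and 36.9%, and from 500 to 1000, on 53, 28 and 26 peaks, they were 58.5%, 53.6% and 57.7%, with overlapping intervals in both bands. At 1000 or above the share was 40.6% of 64 sites and 66.7% in each of the other sets, which held only 3 peaks each. A phenylephrine peak other than those overlapping the site lay within 10 kb of 33.2% (30.2 to 36.4%) of the sites, 34.0% (32.2 to 35.9%) of the peaks with a weaker partner and 40.0% (38.8 to 41.2%) of those with none. Leaving out overlapping peaks removes none where there is no partner, so the 40.0% was not counted on quite the same terms. The mean number of other basal peaks within 100 kb was 6.06, 6.19 and 6.25 in the same order.

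Many sites were the high point of their surroundings, as were many other strong basal peaks. The basal peak was the highest-scoring basal peak within 100 kb at 484 sites, 54.4% (51.2 to 57.7%), and the partner was the highest-scoring phenylephrine peak within 100 kb at 710, 79.9% (77.1 to 82.4%). Both held at 443 sites, 49.8% (46.6 to 53.1%). The score chose both the sites and their partners, so these shares are a description. The basal share was 45.7% (43.8 to 47.7%) for strong basal peaks with a weaker partner and 38.7% (37.5 to 39.9%) for those with none. Those peaks also scored lower, with medians of 164 and 134. For the basal list a comparison was therefore made within bands of basal score. None was made for the partners, so the 79.9% and 49.8% have no share of other peaks beside them. From 100 to 200, 36.0% (31.6 to 40.6%) of sites were the local high point of the basal list, against 31.9% (29.7 to 34.2%) of peaks with a weaker partner and 32.7% (31.5 to 33.9%) of those with none. From 200 to 500 the shares were 70.2% (65.1 to 74.9%), 72.0% (68.8 to 74.95%) and 67.8% (65.1 to 70.5%), and from 500 to 1000 they were 66.0% (52.6 to 77.3%), 82.1% (64.4 to 92.1%) and 69.2% (50.0 to 83.5%). The intervals overlap in all 3 bands, so within them the trait was not seen to be particular to the shared sites.

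The most isolated sites were also among the strongest. Of all 889, the farthest from any other peak of either list was the chromosome 15 site at 31146708, 448 kb from the next basal peak and 512 kb from the next phenylephrine peak. It was followed by the chromosome 1 site at 70431410, 968 kb from the next basal and 361 kb from the next phenylephrine peak, and by the chromosome 13 site at 36740454, at 255 and 329 kb. All 3 had a basal score of at least 1000, as did 64 of the 889 sites. The strongest sites thus included both close groups and places with no other call within 100 kb.

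The share of strong basal peaks with a strong partner was 8.79% over all chromosomes together. By chromosome it ranged from 6.21% (4.01 to 9.49%) on chromosome 20, with 19 sites, to 13.2% (10.0 to 17.1%) on chromosome 16, with 47. Chromosome 11 had 12.5% (9.17 to 16.8%) and chromosome 1, with the largest number of sites, 124, had 10.6% (8.94 to 12.5%). The intervals of these 3 chromosomes lay above the overall share and that of chromosome 10, at 6.65% (5.04 to 8.73%), lay below it. With 20 chromosomes compared, some such intervals would be found without any difference. Leaving out the region described above lowered chromosome 16 to 8.88% (6.18 to 12.6%). Counted per Mb, sites were densest on chromosome 12 at 0.663 and sparsest on chromosome 2 at 0.217, where strong basal peaks were also densest and sparsest, at 7.78 and 2.94 per Mb. Within 5 Mb of either end of the span covered by peaks lay 8.89% (7.19 to 10.9%) of the sites, 8.71% (7.66 to 9.89%) of the peaks with a weaker partner and 8.95% (8.29 to 9.65%) of those with none, with overlapping intervals.

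**Figure D5:**
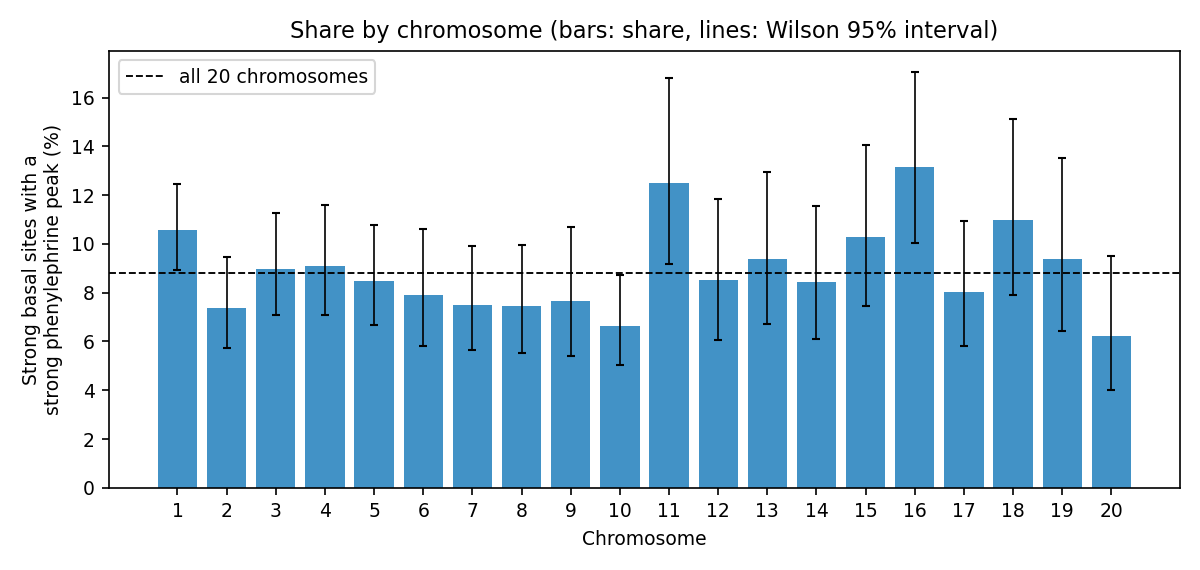
Share of strong basal peaks (score of at least 100, width below 2000 bp) that had a strong phenylephrine partner, by chromosome, with Wilson 95% intervals and a dashed line at 8.79%, the share over all 20 chromosomes. Chromosome 16 is highest at 13.2% and chromosome 20 lowest at 6.21%.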

How the data were processed

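HMGB2 ChIP-seq was deposited as 1 peak list for the basal and 1 for the phenylephrine library. Bowtie 0.12.7 (aligner), MACS 1.4.1 (peak caller) and build rn4 are named in the submitters' processing notes. The lists were deposited in bedGraph form, per the file headers, with a score for each peak as the authors gave it, from 50 up to 3174 and 3107. The sources used here give neither the scale of the score nor the calling threshold nor any control library. Starts are printed with 1 added. Both files hold a start of 1, so they may already count from 1. Width is end minus start as deposited.

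Pairing and intervals used scipy 1.17.1, numpy 2.4.6 and pandas 2.3.3 under Python 3.11.15. The pairing was tested on simulated data, and bedtools 2.31.1 gave the same 889 sites. Ranks are by score over chromosomes 1 to 20, with ties at their mean. Shares carry Wilson 95% intervals and medians exact binomial ones. Distances between sites run between midpoints. Figures used matplotlib 3.10.9.

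The members, lists and score bands were chosen with earlier results of these data known. Named sites follow a rule: extremes of rank sum, rank gap, midpoint offset, width ratio and isolation, the largest groups, and the sites at each limit. Sequence and gene annotation of rn4 were not used here.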

Additional observations from a re-analysis of the deposited data

Results flagged for a closer look

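Outside chromosomes 1 to 20, the same limits on score, width and overlap were met by 18 sites on chromosome X, of 125 strong basal peaks there (14.4%), and by 61 sites in unplaced sequence, of 296 (20.6%). On chromosomes 1 to 20 the share was 8.79%, and whether the other shares differ from it was not tested. The mitochondrial genome held 1 such site, its 1 strong basal peak, which is not above the 3 that a count of 0 allows. The sites on X and in unplaced sequence drew attention because they are signal in sequence that the comparisons above leave out, and each number is above those 3. That bar only sets a number apart from a count of 0 and does not show an excess of shared sites.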

How the results depend on the processing

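Neither condition has a second library, so the treatment could not be tested and leaving out a library was not possible; depth is unknown. No paired analysis was possible because there were no replicates to pair. Of 11 alternatives, 9 were planned, and those without the chromosome 16 region and without sites of basal score 500 or above were chosen after seeing the data. A value counts as moved outside its 95% interval, or a number of sites by over 1.5 times. Adding X or leaving out the chromosome 16 region moved none of the 10 values. Of these values only the rank correlation could change sign, and it was positive under all 11 alternatives. Beyond the sites that a setting adds or removes, the cause was not tested.

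With 50% of both peaks overlapping, the median basal width was 1354 bp, the partner width 1000 bp, the width ratio 1.35, the midpoint distance 130.5 bp and the nearest site 825 kb away. With midpoints within 250 bp the basal width was 1322 bp, the ratio 1.43, the distance 100.5 bp, the nearest site 810 kb away, and 73.1% of partners lay inside the basal peak.

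A score of at least 150 left 210 sites, with widths of 1317 and 892 bp (ratio 1.39), 67.6% of partners inside, a midpoint distance of 107 bp, the nearest site at 2772 kb and a rank correlation of 0.67. A score of at least 200 left 94 sites, with 1139 and 804 bp (1.33), 67.0% inside, 91.5 bp, 4196 kb and 0.73; another site lay within 100 kb of 24.5% and another basal peak within 10 kb of 43.6%. With the 3000 highest-scoring peaks of each list there were 376 sites, a partner width of 890 bp, 69.1% inside, 135 bp, 1167 kb, 0.52 and a basal peak within 10 kb of 40.4%.

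With no width limit there were 1389 sites, widths of 1689 and 1023 bp (1.63), 70.2% inside, 199 bp, the nearest site at 320 kb and another site within 100 kb of 24.9%. Below 1500 bp there were 545 sites, 1208 and 841 bp (1.37), 58.5% inside, 120.5 bp, 990.3 kb and a rank correlation of 0.44. With peaks within 1 kb merged, the nearest site was 704 kb away, another site lay within 100 kb of 15.1% and another basal peak within 10 kb of 30.2%. Without sites of basal score 500 or above the rank correlation fell to 0.14, the nearest site was 767 kb away and 13.0% had another site within 100 kb.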
